A study of Mus musculus with 6 samples.

Results

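Clock output factors are transcription factors whose own transcripts follow the circadian clock and carry its rhythm to other genes. The 7 studied here are the PAR bZIP activators Dbp, Tef and Hlf, the bZIP repressor Nfil3, the bHLH repressors Bhlhe40 and Bhlhe41, and Gm129, an older symbol of Ciart. They were taken by exact gene symbol from a table of 22556 genes, and all 7 had a row. In RefSeq, Gm129 lies on chromosome 3, Bhlhe40 and Bhlhe41 on 6, Dbp on 7, Hlf on 11, Nfil3 on 13 and Tef on 15. The table holds RPKM, which scale reads to the length of the transcript and to the mapped reads of the library, from hearts of wild-type mice. In the infused groups an osmotic minipump under the skin delivered 1000 ng/kg/min of Ang II (angiotensin II, which raises blood pressure) for 7 or 28 days. Controls carry the label 0 days. There were 2 libraries in each of these 3 groups, 6 together. Treatment of the controls, the hour of heart collection and whether every library is a mouse of its own are not stated. All p-values hence measure the spread between these libraries, which may be technical. In every comparison below, a difference in the hour of collection between the groups cannot be told apart from the infusion.

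The mammalian clock is a loop in which the activators CLOCK and BMAL1 bind E-boxes and switch on their own repressors, the PER and CRY proteins. Dbp, Tef and Hlf are switched on through the same E-boxes and activate genes that carry a D-box, while NFIL3 binds the same D-box and represses. BHLHE40 and BHLHE41 compete with CLOCK and BMAL1 at E-boxes, and CIART represses the activity of CLOCK and BMAL1. In the rodent heart the clock drives daily rhythms of metabolism and of ion channel expression, and Dbp is among the transcripts with the largest daily swing.

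The sequence before the gene start was examined because these members are textbook examples of E-box and ROR element control. RefSeq promoter windows on GRCm38.p6 were at hand for 6 of the 7 members, with a pair of alternative starts for Tef, and the 250 bases before each start were searched on both strands. The E-box searched was CACGTG, found in 6.02% of all 32851 windows of that length. The related E-box CACGTT occurred in 3.85% of them, the D-box TTANGTAA in 2.06% and the ROR element TAGGTCA in 2.23%. The window of Gm129, at chr3:95882229-95882478 on the minus strand, held CACGTG at 3 places, which 20 windows or 0.0609% of all did at 3 or more places. It reads 5′ to 3′ as follows, with the E-boxes in capitals.
Gm129: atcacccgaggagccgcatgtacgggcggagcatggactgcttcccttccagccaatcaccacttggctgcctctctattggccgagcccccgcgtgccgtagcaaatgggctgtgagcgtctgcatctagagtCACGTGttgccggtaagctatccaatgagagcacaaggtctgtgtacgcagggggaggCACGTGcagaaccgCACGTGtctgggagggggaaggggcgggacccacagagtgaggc
The E-boxes of Gm129 begin 116, 58 and 44 bases before the start. Both windows of Tef and the window of Bhlhe41 held 1 E-box each, and the window of Nfil3 held the ROR element on the opposite strand, 12 bases before its start. The 30 bases around each match are shown to compare their flanks, with the match in capitals, read along the strand of the gene. They lie at chr15:81802534-81802563 and chr15:81811264-81811293 on the plus strand for Tef, at chr6:145865556-145865585 on the minus strand for Bhlhe41 and at chr13:52981040-52981069 on the minus strand for Nfil3.
Tef start 1: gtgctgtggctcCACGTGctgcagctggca
Tef start 2: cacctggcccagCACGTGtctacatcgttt
Bhlhe41: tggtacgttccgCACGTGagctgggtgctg
Nfil3: tagcgcggcgctcggaacTGACCTActaac
No match of these 4 motifs overlapped another. None of the 4 was found in the windows of Dbp and Hlf, which says only that these letters are not in those 250 bases.

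Relative to control replicate 1, depth lay between 0.89 and 1.167 in the other libraries, and between 15636 and 16036 genes had a value above 0 in a library. Absolute depth is unknown. Tests covered the 11096 genes whose mean reached 1 RPKM, among them all 7 members. Markers of cardiomyocytes were high in all libraries, with a summed level of 30482 to 42550 RPKM over 7 genes. Control replicate 2 held far more of the 4 atrial markers than control replicate 1, at 3017 against 320.0 RPKM summed. In GENCODE M21, 18.0% of the exon bases of Dbp are shared with Sphk2 on the opposite strand, and 19.0% of those of Bhlhe41 with Gm43909, also on the opposite strand. Whether reads were counted by strand is not given in the sources used here. Sphk2 itself stood between 3.34 and 5.21 RPKM in the 6 libraries, while Gm43909 has no row.

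The first comparison set hearts after 7 days of infusion against controls. The 3 PAR bZIP activators and Gm129 fell, Nfil3 rose, and Bhlhe40 and Bhlhe41 did not pass. A gene passed at a limma adjusted p under 0.05, with Benjamini-Hochberg adjustment over all tested genes. By this rule 5 of 7 members passed, where 15.4% of all tested genes did. Of these, 4 were lower, where 2.27% of all tested genes were, and 1 was higher, where 13.2% were. That background moves with the scaling, with 1461 genes higher and 252 lower as deposited, 729 and 426 after median ratio scaling and 701 and 527 after quantile normalization. After either rescaling 5 members were lower and 1 was higher. The libraries of the groups did not overlap for 5 members that lay lower and 1 that lay higher, against 16.1% and 48.6% of all tested genes. In tissue of mixed cell types, fewer cells of a type and less RNA per cell cannot be told apart.

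Dbp, the D-box activator known for the widest daily rhythm of the family, had 2.92 and 1.79 RPKM at 7 days, against 54.7 and 49.0 RPKM in controls. Both 7 day libraries lay far below both control libraries, and their mean was 4.54% of the control mean. On the scale of log2(RPKM + 0.5), which understates changes of low values, Dbp fell by 4.22 (SE 0.20, limma adjusted p = 0.000233). This was the 2nd lowest change among the 11096 tested genes.

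Tef, its relative with a flatter rhythm, had 13.3 and 11.2 RPKM at 7 days, against 58.3 and 51.9 RPKM in controls. The log2 change was -2.13 (SE 0.12, limma adjusted p = 0.000391). Hlf, the least abundant of the trio in these hearts, had 1.29 and 1.44 RPKM at 7 days, against 7.56 and 6.75 RPKM in controls. Its libraries did not overlap either, and it fell by 2.04 on the log2 scale (SE 0.13, limma adjusted p = 0.00048). At 7 days the mean of Tef was 22.2% and that of Hlf 19.0% of the control mean, so Dbp kept the smallest share of the 3. The difference between members was not tested.

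Gm129, which encodes the repressor CIART and has the 3 E-boxes shown above, had 0.680 and 0.857 RPKM at 7 days, against 7.18 and 6.10 RPKM in controls. It fell by 2.49 on the log2 scale (SE 0.16, limma adjusted p = 0.00048), the 10th lowest change of all tested genes. The libraries of the groups were apart, with a 7 day mean at 11.6% of the control mean. The falls of Dbp, Tef, Hlf and Gm129 passed under each of the alternatives run that tested them.

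Nfil3, the repressor that competes for D-boxes, moved the other way, with 7.43 and 9.01 RPKM at 7 days, against 3.24 and 3.49 RPKM in controls. Both 7 day libraries exceeded both controls, with a log2 change of 1.17 (SE 0.16, limma adjusted p = 0.00493), the 267th highest of all tested genes. Without 7 day replicate 2 the change was 1.04 and did not pass (limma adjusted p = 0.0503).

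Neither of the bHLH repressors passed at 7 days. Bhlhe40, also known as a gene induced by low oxygen and by immune stimuli, had 12.7 and 12.8 RPKM at 7 days, against 11.2 and 17.4 RPKM in controls. The control libraries lay on both sides of the 7 day libraries, and the log2 change of -0.12 had a 95% interval of -0.56 to 0.32 (limma adjusted p = 0.698). It was 0.19 without control replicate 2. Bhlhe41 had 3.84 and 2.62 RPKM at 7 days, against 5.07 and 4.79 RPKM in controls. Its libraries did not overlap, but its log2 change of -0.56 did not pass (SE 0.17, limma adjusted p = 0.0661). It passed at -0.70 after median ratio scaling, at -0.74 after quantile normalization and at -0.80 without 7 day replicate 1 (limma adjusted p = 0.041, 0.0425 and 0.0353). The median log2 change of all tested genes at 7 days was 0.14 as deposited and -0.01 after median ratio scaling. Relative to the deposited median, the changes were -4.36 for Dbp, -2.63 for Gm129, -2.27 for Tef, -2.17 for Hlf, -0.70 for Bhlhe41, -0.26 for Bhlhe40 and 1.03 for Nfil3.

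**Figure D1:**
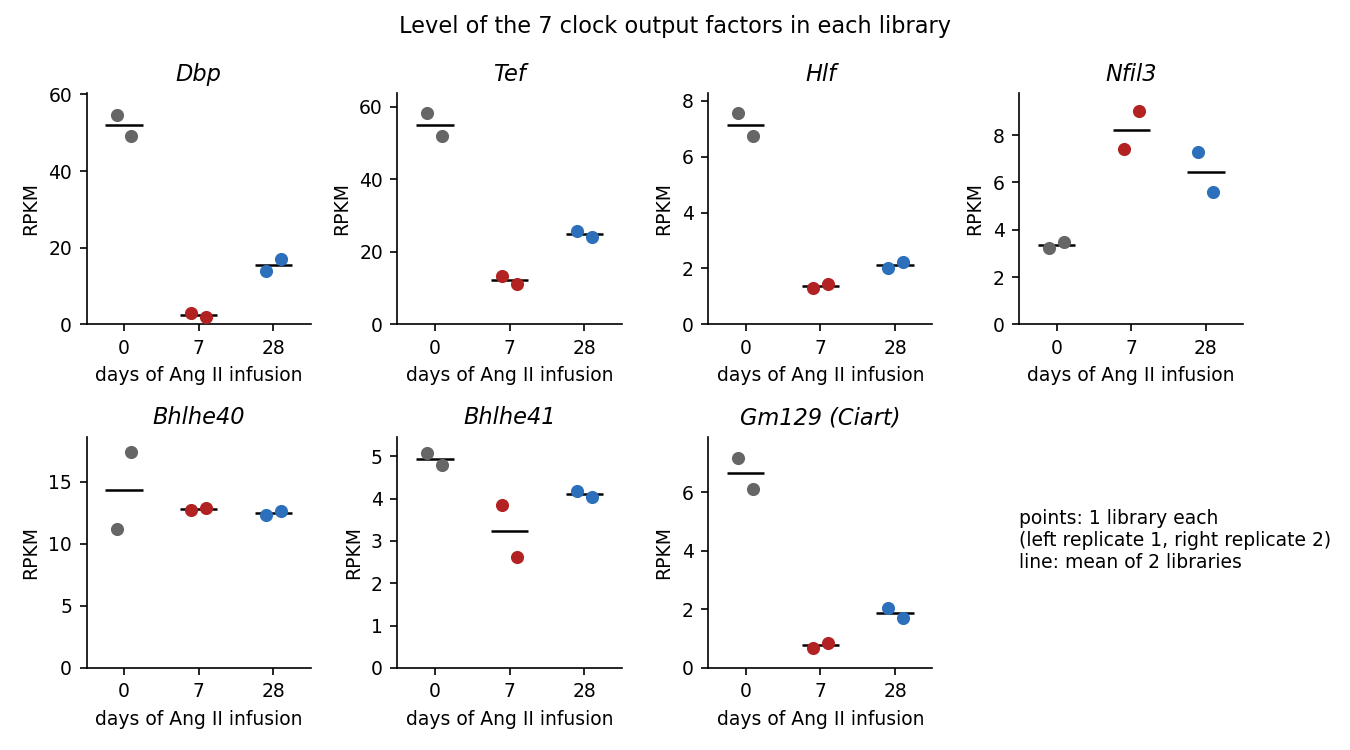
Each panel plots 1 of the 7 factors, with RPKM on the vertical axis from 0 and days of Ang II infusion on the horizontal axis; points are single libraries and lines are means of 2 libraries. Dbp, Tef, Hlf and Gm129 were lowest at 7 days and stood between the other groups at 28 days, Nfil3 was lowest in controls, and the controls of Bhlhe40 spread from 11.2 to 17.4 RPKM.

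The second comparison set hearts after 28 days of infusion against controls. The same 4 genes, Dbp, Tef, Hlf and Gm129, were lower and Nfil3 was higher, with log2 changes nearer 0 than at 7 days. So 5 of 7 members passed, where 4.41% of all tested genes did. Of these, 4 were lower, where 1.54% were, and 1 was higher, where 2.87% were. Libraries did not overlap for 5 members that lay lower and 1 that lay higher, against 25.8% and 28.8% of all tested genes. Both comparisons use the same control libraries, so they are not independent of each other.

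Dbp had 13.9 and 17.0 RPKM at 28 days, against 54.7 and 49.0 RPKM in controls, which put its mean at 29.8% of the control mean. It fell by 1.72 on the log2 scale (SE 0.20, limma adjusted p = 0.00933). Tef had 25.7 and 23.9 RPKM at 28 days, against 58.3 and 51.9 RPKM in controls, a log2 change of -1.13 (SE 0.12, limma adjusted p = 0.00748). For Dbp and Tef the 28 day libraries lay below both controls and above both 7 day libraries.

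Hlf had 2.03 and 2.22 RPKM at 28 days, against 7.56 and 6.75 RPKM in controls, a log2 change of -1.54 (SE 0.13, limma adjusted p = 0.00368). Gm129 had 2.04 and 1.71 RPKM at 28 days, against 7.18 and 6.10 RPKM in controls, a log2 change of -1.59 (SE 0.16, limma adjusted p = 0.00623). At 28 days Dbp, Hlf and Gm129 stood at similar shares of their control means, 29.8%, 29.8% and 28.3%, and Tef at 45.1%. Without control replicate 1 none of the 4 passed at 28 days (limma adjusted p = 0.0763 for Dbp and Tef, 0.0508 for Hlf and 0.0661 for Gm129), at log2 changes of -1.64, -1.05, -1.46 and -1.48. Without control replicate 2 the log2 changes were -1.80 for Dbp, -1.21 for Tef, -1.62 for Hlf and -1.69 for Gm129. Control replicate 1 had 320.0 RPKM of summed atrial markers, against 3017 in control replicate 2 and 2038 to 3427 in the infused libraries. This sum includes Nppa, which differed at 28 days at an unadjusted limma p under 0.05, so it need not measure atrial tissue alone. The part of atrial tissue in these changes was not tested. Over all tested genes far fewer passed without control replicate 1, and also without control replicate 2, than the 489 with all libraries. Either fit leaves 1 control library, so a lost call need not be particular to the library left out. The call of Dbp was also lost without a filter on low values (limma adjusted p = 0.0584).

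Nfil3 had 7.29 and 5.58 RPKM at 28 days, against 3.24 and 3.49 RPKM in controls, a log2 change of 0.83 (SE 0.16, limma adjusted p = 0.0357). The groups were apart, but the call was lost when any 1 library other than 28 day replicate 2 was left out, at changes of 0.65 to 0.88 and limma adjusted p of 0.0623 to 0.244. It was also lost without a filter, with only the 2 groups in the fit and with a replicate block (limma adjusted p = 0.107, 0.0634 and 0.0577).

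Bhlhe40 had 12.3 and 12.7 RPKM at 28 days, against 11.2 and 17.4 RPKM in controls, and its log2 change of -0.15 had a 95% interval of -0.60 to 0.29. It was 0.16 without control replicate 2. Bhlhe41 had 4.18 and 4.03 RPKM at 28 days, against 5.07 and 4.79 RPKM in controls. Its libraries did not overlap, with a log2 change of -0.24 and a 95% interval of -0.63 to 0.16, and neither gene passed (limma adjusted p = 0.675 for Bhlhe40 and 0.445 for Bhlhe41).

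**Figure D2:**
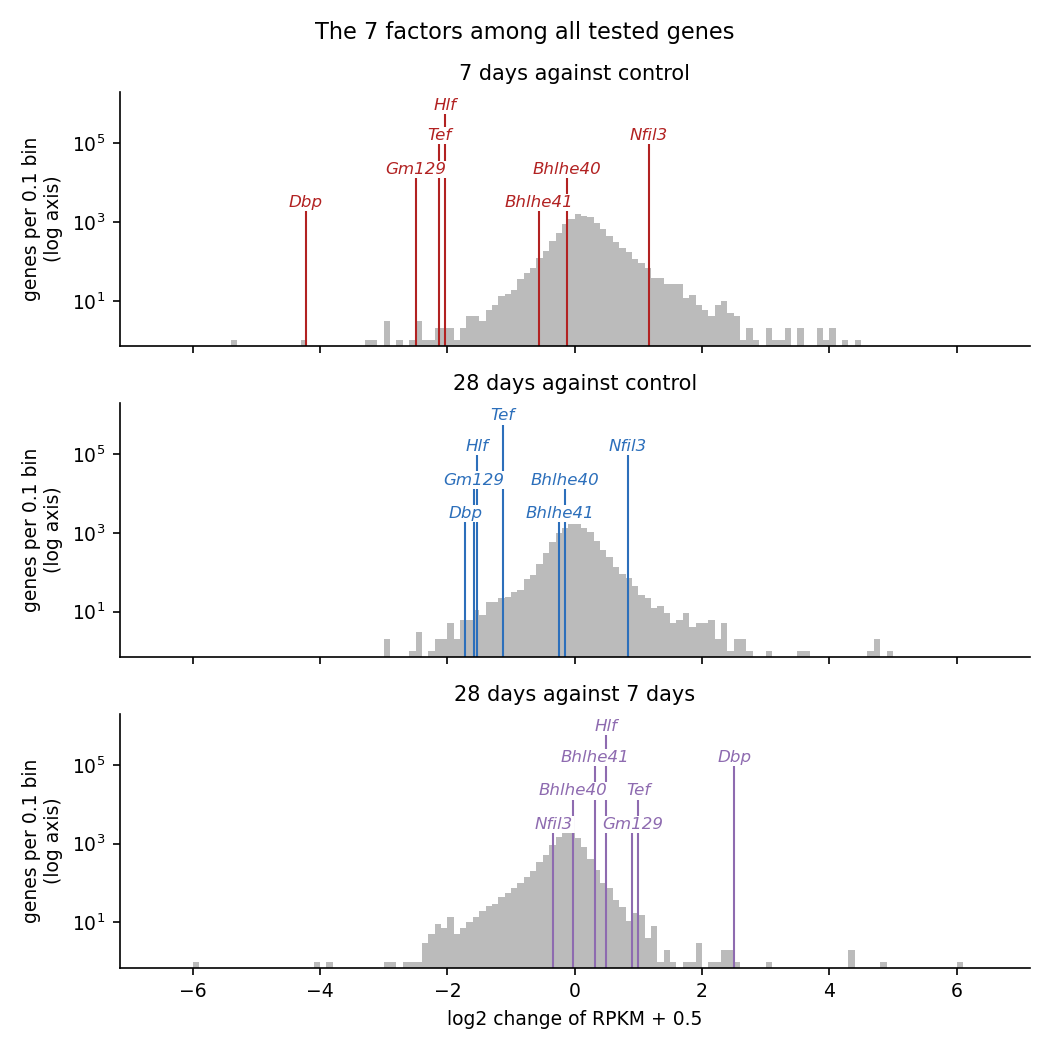
Histograms of the log2 change of all 11096 tested genes (grey, log vertical axis, bins of 0.1) in the 3 comparisons, with a labelled line at each of the 7 factors; line heights only separate the labels. At 7 days Dbp, Gm129, Tef and Hlf stood in the low tail, with Dbp at -4.22, and in 28 against 7 days Dbp stood in the high tail at 2.51.

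The third comparison, 28 days against 7 days of infusion, tested directly whether the infusion times differed. Dbp, Tef and Gm129 were higher at 28 than at 7 days, and 4 members did not pass. So 3 of 7 members passed, where 4.67% of all tested genes did. All 3 were higher, where 0.406% were, and 0 of 7 were lower by limma, where 4.26% were; 4 of 7 had an unadjusted p under 0.05, all higher. Over all tested genes 45 were higher and 473 lower as deposited, 63 and 225 after median ratio scaling and 55 and 210 after quantile normalization, with 3 members higher and 0 lower in each. Libraries did not overlap for 5 members that lay higher and 2 that lay lower, against 9.12% and 41.2% of all tested genes. The 7 day libraries enter this comparison and the first one, so these are not independent of each other either.

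Dbp had 13.9 and 17.0 RPKM at 28 days, against 2.92 and 1.79 RPKM at 7 days. The log2 change of 2.51 (SE 0.20, limma adjusted p = 0.00264) was the 7th highest of all tested genes. It passed under each alternative run, at 2.22 to 2.79. Tef was higher by 1.0 on the log2 scale (SE 0.12, limma adjusted p = 0.00902), with its call lost without 7 day replicate 2 (0.88, limma adjusted p = 0.0791).

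Gm129 was higher at 28 than at 7 days by 0.91 (SE 0.16, limma adjusted p = 0.0271). Its call was lost when any 1 library other than 28 day replicate 2 was left out (limma adjusted p = 0.0549 to 0.12), with changes of 0.81 to 1.01, and also without a filter or with only the 2 groups in the fit (limma adjusted p = 0.0731 and 0.0661). Hlf, at 2.03 and 2.22 RPKM against 1.29 and 1.44 RPKM at 7 days, missed the threshold at a log2 change of 0.50 (95% interval 0.19 to 0.81, limma adjusted p = 0.0876). Nfil3 had a log2 change of -0.33 (95% interval -0.71 to 0.04, limma adjusted p = 0.268), with libraries just apart at 7.29 and 5.58 RPKM against 7.43 and 9.01 RPKM. Bhlhe40 was at -0.03, or 0.11 after either rescaling, and Bhlhe41 at 0.32, and neither passed (limma adjusted p = 0.945 and 0.311).

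**Figure D3:**
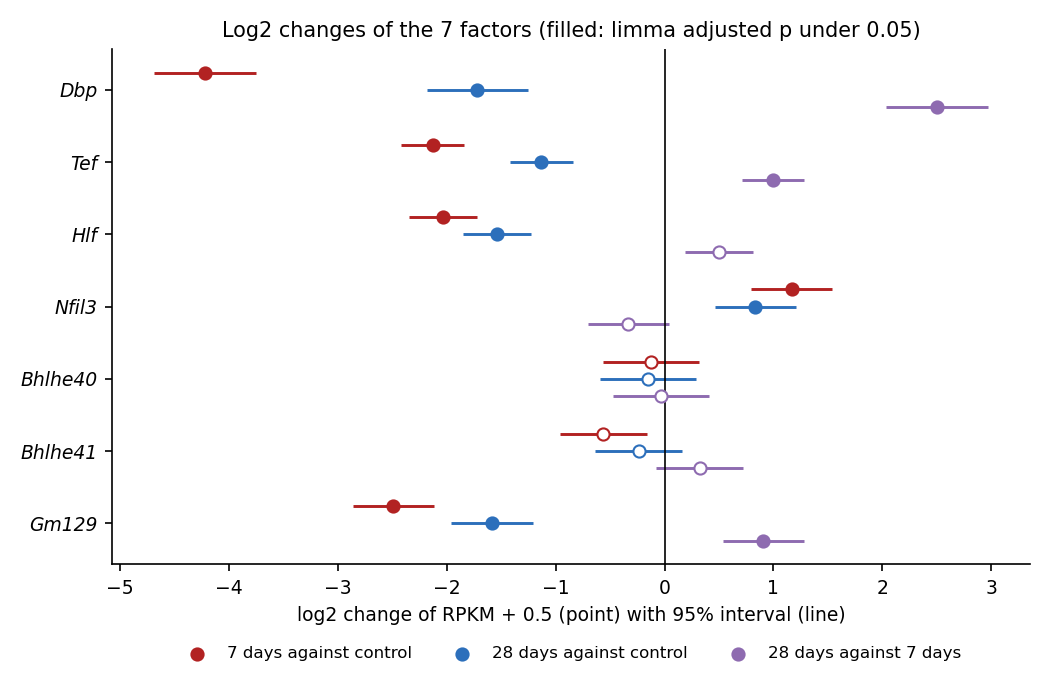
Log2 changes of RPKM + 0.5 for each factor (points) with 95% intervals from limma (lines), in the 3 comparisons given by colour; filled points passed at an adjusted p under 0.05. Dbp, Tef, Hlf and Gm129 lay below 0 at both infusion times with filled points, Nfil3 above 0, and the intervals of Bhlhe40 all crossed 0.

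Markers of several cell types differed between the same groups. The 7 cardiomyocyte markers summed to 30482 to 37908 RPKM at 7 days and 37888 to 42550 RPKM at 28 days, against 34109 to 35026 RPKM in controls. The 7 fibroblast markers summed to 980 to 1031 RPKM at 7 days, with 5 of 7 called higher, and to 415 to 505 RPKM at 28 days, against 436.6 to 436.8 RPKM in controls. The 8 monocyte and macrophage markers summed to 327 to 348 RPKM at 7 days, with 8 of 8 called higher, and to 117 to 166 RPKM at 28 days, against 187 to 202 RPKM in controls. The 6 endothelial markers summed to 222 to 262 RPKM at 7 days and 170 to 204 RPKM at 28 days, against 159 to 168 RPKM in controls. The 6 smooth muscle and pericyte markers summed to 242 to 277 RPKM at 7 days and 167 to 182 RPKM at 28 days, against 162 to 176 RPKM in controls. The 4 atrial markers summed to 2038 to 2227 RPKM at 7 days and 2415 to 3427 RPKM at 28 days, against 320.0 and 3017 RPKM in controls. Of them 0 were called by limma in any comparison, and 1, Nppa at 28 days, had an unadjusted p under 0.05. The 9 lymphocyte markers stayed between 0.623 and 1.52 RPKM summed in all libraries. At 7 days 1 cardiomyocyte, 3 endothelial and 2 smooth muscle and pericyte markers were also called higher, where 13.2% of all tested genes were. At 28 days 1 cardiomyocyte, 1 fibroblast and 1 endothelial marker were higher than in controls, where 2.87% of all were. In 28 against 7 days 5 fibroblast and 6 monocyte and macrophage markers were lower, where 4.26% of all were. No listed marker was at 0 in all 6 libraries. Their part in the changes of the 7 factors was not tested.

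RPKM are scaled by length, so levels can be set side by side within a library. In controls the order by mean level was Tef at 55.1 ± 4.48 RPKM, Dbp at 51.9 ± 4.01, Bhlhe40 at 14.3 ± 4.40, Hlf at 7.15 ± 0.575, Gm129 at 6.64 ± 0.766, Bhlhe41 at 4.93 ± 0.198 and Nfil3 at 3.37 ± 0.173 (SD, n = 2). The ranges of the neighbours Tef and Dbp overlapped, as did those of Hlf and Gm129, while the others were apart. At 7 days the order was Bhlhe40 at 12.8 ± 0.0839, Tef at 12.2 ± 1.51, Nfil3 at 8.22 ± 1.12, Bhlhe41 at 3.23 ± 0.862, Dbp at 2.36 ± 0.80, Hlf at 1.36 ± 0.106 and Gm129 at 0.768 ± 0.125 RPKM. Dbp was in the fifth place at 7 days and in the second in controls. At 7 days the ranges of Bhlhe40 and Tef overlapped, and so did those of Bhlhe41 and Dbp. At 28 days Tef led again at 24.8 ± 1.27 RPKM, followed by Dbp at 15.5 ± 2.17, Bhlhe40 at 12.5 ± 0.231, Nfil3 at 6.44 ± 1.21, Bhlhe41 at 4.11 ± 0.112, Hlf at 2.13 ± 0.132 and Gm129 at 1.88 ± 0.234 RPKM. The ranges of Hlf and Gm129 overlapped, and those of the other neighbours were apart.

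The activators and the repressor that share the D-box changed their proportion. The summed RPKM of Dbp, Tef and Hlf was 17.5 and 14.4 at 7 days and 41.7 and 43.2 at 28 days, against 120.5 and 107.7 in controls. Divided by the RPKM of Nfil3, this gave ratios of 2.36 and 1.60 at 7 days and 5.72 and 7.73 at 28 days, against 37.2 and 30.9 in controls. The groups did not overlap in this ratio. It follows from the values of the 4 genes already given and was not tested.

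The makeup of the PAR bZIP sum also differed between groups. Dbp made up 16.7% and 12.4% of it at 7 days and 33.4% and 39.4% at 28 days, against 45.4% and 45.5% in controls. Tef made up 76.0% and 77.6% at 7 days and 61.7% and 55.5% at 28 days, against 48.3% and 48.2% in controls. Hlf stayed between 4.88% and 9.98% in all libraries. The ratio of Dbp to Tef within a library was 0.220 and 0.160 at 7 days and 0.541 and 0.710 at 28 days, against 0.939 and 0.945 in controls.

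**Figure D4:**
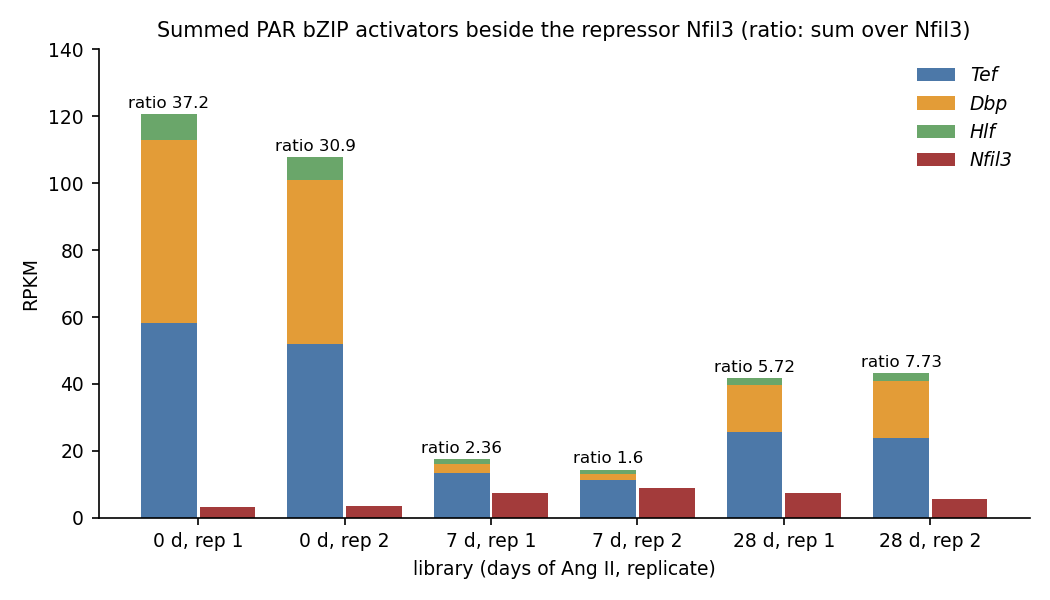
For each library the left bar stacks the RPKM of Tef, Dbp and Hlf and the right bar gives the RPKM of Nfil3; the number above is the ratio of the stacked sum to Nfil3. The ratio was 37.2 and 30.9 in controls, 2.36 and 1.60 at 7 days and 5.72 and 7.73 at 28 days.

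The genes most like each member were found by the root mean square distance between log2 profiles over the 6 libraries, each centred on its own mean. The libraries of a group share their treatment, so the 6 points fall into 3 groups. Predicted genes and merged entries were left out of the search. Nearest to Dbp were Per3 and Per2, clock repressors, at distances of 0.60 and 0.61. The distance grows with the size of a gene's own changes, so distances of different members are not on a common scale. The root mean square of the centred profile was 1.74 for Dbp, against 0.19 for Bhlhe40 and up to 1.04, for Gm129, in the other members. Nearest to Tef and to Hlf was Nr1d2, which encodes the nuclear receptor REV-ERB beta, at 0.15 and 0.18. Nr1d2 had 10.6 and 8.22 RPKM at 7 days and 15.5 and 14.3 RPKM at 28 days, against 37.1 and 36.6 RPKM in controls.

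Nearest to Gm129 were Hlf and Tef, at 0.22 and 0.24, and Tef and Hlf lay 0.25 from each other. Dbp lay between 0.83 and 1.01 from these 3. Nearest to Nfil3 were Alpk2, at 0.08, and Inpp5j, at 0.09. Nearest to Bhlhe40 was Igf2, at 0.05, with 5.28 and 5.48 RPKM at 7 days and 5.32 and 5.88 RPKM at 28 days, against 4.88 and 7.80 RPKM in controls, so the likeness rests on the gap between the control libraries. Nearest to Bhlhe41 was Lrrc39, at 0.04.

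Of the core clock loop, 18 genes were listed and 15 tested. At 7 days 3 rose and 4 fell, with a median log2 change of -0.21 beside 0.14 for all tested genes. Of all tested genes, 13.2% were higher and 2.27% lower. Arntl, which encodes the activator BMAL1, had 9.54 and 9.49 RPKM at 7 days, against 0.191 and 0.861 RPKM in controls (log2 change 3.37, limma adjusted p = 0.000944). Its partner genes Npas2 and Clock rose by 1.67 and 0.80 (limma adjusted p = 0.0016 and 0.0254). The call of Clock was lost without any 1 control or 7 day library (limma adjusted p up to 0.159) and after either rescaling. The repressor genes Per2, Per3, Nr1d2 and Cry2 fell, with log2 changes of -3.0, -2.99, -1.93 and -1.14 (limma adjusted p = 0.00058, 0.000483, 0.000483 and 0.00457). Per1, Cry1 and Nr1d1 did not pass, at -0.77, -0.21 and -0.34.

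At 28 days 2 core clock genes were higher and 4 lower than in controls, with a median of -0.10 beside 0.01 for all tested genes. Of all tested genes, 2.87% were higher and 1.54% lower. Arntl was higher by 2.36 and Npas2 by 0.97, and Per3, Nr1d2, Per2 and Cry2 were lower, at -1.72, -1.28, -1.08 and -0.80. The call of Cry2 was lost whichever of the 6 libraries was left out, at changes of -0.95 to -0.65. That of Npas2 was lost without 5 of the 6 libraries in turn and that of Per2 without 4. Over all 6, their changes were 0.90 to 1.04 and -1.22 to -0.94. In place of 6, 1 gene of the list, Arntl, passed without control replicate 1, and 3 genes passed without control replicate 2 or without 28 day replicate 1. In 28 against 7 days, Per2, Per3 and Nr1d2 were higher by 1.91, 1.27 and 0.65, where 0.406% of all tested genes were. By limma 0 were lower, where 4.26% of all were, while Arntl, Npas2 and Timeless had an unadjusted p under 0.05 and lay lower. The list median was 0.07 beside -0.12 for all tested genes. The call of Nr1d2 was lost whichever library was left out, at changes of 0.48 to 0.82. That of Per3 was lost without 7 day replicate 1 or without 7 day replicate 2. Its change was 1.09 to 1.45 over all libraries left out in turn.

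Genes with textbook D-box or ROR element control were counted as well. Of 6 tested D-box genes, Per1, Per2, Per3, Nr1d1, Nr1d2 and Cry1, 3 fell at 7 days and 0 rose, with a median of -1.35, and 3 fell at 28 days with a median of -0.61. Of 6 tested ROR element genes, which include Nfil3, 4 rose at 7 days and 0 fell, with a median of 0.98, and 3 rose at 28 days with a median of 0.69. Of all tested genes 2.27% were lower and 13.2% higher at 7 days, and 1.54% and 2.87% at 28 days. Their medians were 0.14 and 0.01. In 28 against 7 days 3 D-box genes were higher, where 0.406% of all tested genes were, with a median of 0.84. There 0 ROR element genes passed, with a median of -0.29. The D-box genes share 6 members with the core clock loop and the ROR element genes 5, so these counts are not independent of those above.

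**Figure D5:**
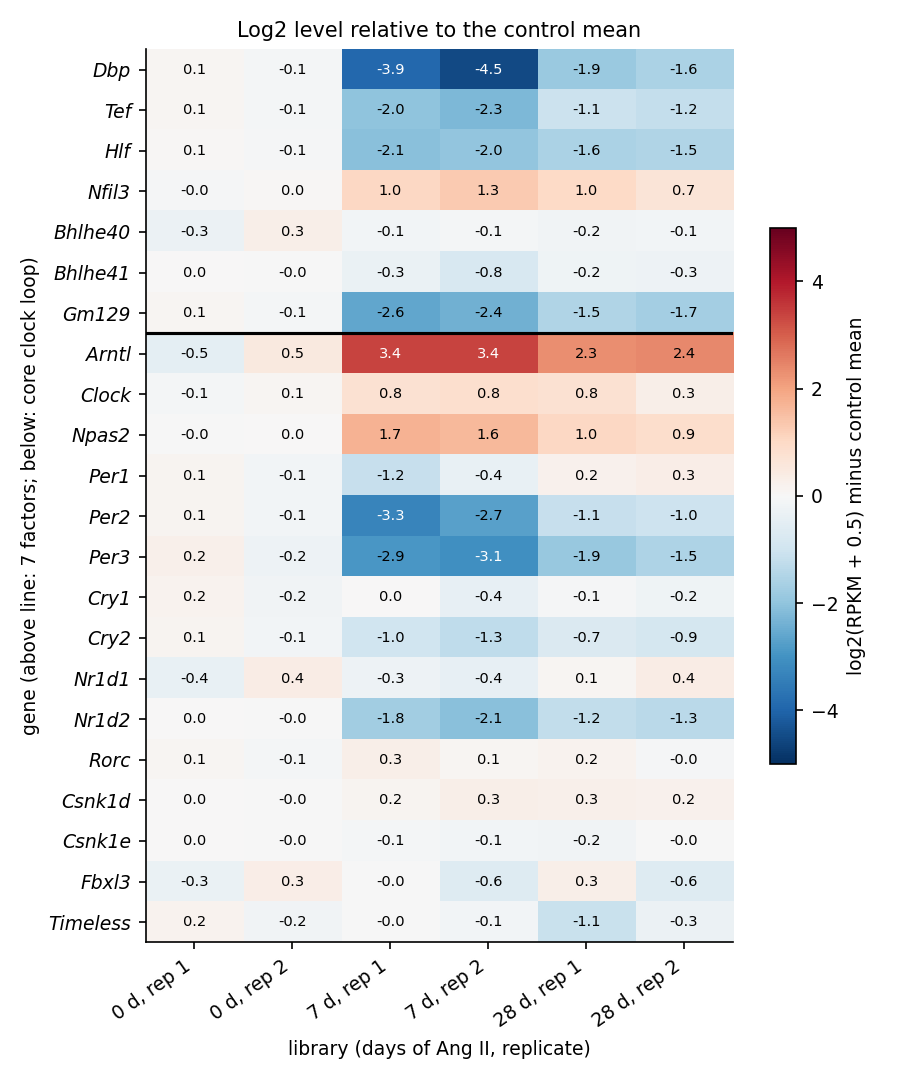
Colours and numbers give log2(RPKM + 0.5) minus the control mean for each library (columns, in days of infusion and replicate) and gene (rows), with the 7 factors above the line and the 15 tested core clock genes below it. Arntl, Npas2 and Nfil3 were above the control mean and Dbp, Gm129, Per2, Per3 and Nr1d2 below it in all 7 day and 28 day libraries.

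Among 12 rhythmic output genes known from heart and other tissues, 8 fell and 3 rose at 7 days, with a median of -0.75 beside 0.14 for all tested genes. Of all tested genes, 2.27% were lower and 13.2% higher at 7 days, and 1.54% and 2.87% at 28 days. Tcap, which encodes the titin cap protein of the Z disc, had 688 and 643 RPKM at 7 days, against 1430 and 1442 RPKM in controls. It fell by 1.11 on the log2 scale (limma adjusted p = 0.00117) and stood at 1612 and 1633 RPKM at 28 days, a log2 change of 1.29 from 7 days (limma adjusted p = 0.00264). Usp2, a ubiquitin protease, fell by 1.28, and Nampt, the rate-limiting enzyme of NAD salvage, fell by 0.94 at 7 days. Klf15, Kcnip2, Wee1, Pik3r1 and Tspan4 fell as well, with log2 changes of -0.86 to -0.57, each with its call lost without at least 3 of the 6 libraries in turn. The 3 that rose were Bdh1, a ketone body enzyme, by 1.67, the cell cycle inhibitor Cdkn1a by 2.47, and Alas1, the first enzyme of heme synthesis, by 0.68. The call of Alas1 was lost without 3 of the 6 libraries in turn. In 28 against 7 days 3 of the 12 genes were higher, where 0.406% of all tested genes were, and 0 were lower, where 4.26% were. Beside Tcap these were Klf15 at 0.69 and Usp2 at 0.72, with calls lost without 6 and 5 of the libraries in turn. At 28 days Kcnip2, Wee1, Nampt and Tspan4 were lower, of which Nampt, at -1.2, passed without any 1 library. Bdh1, Alas1 and Cdkn1a were higher at 28 days, but not without control replicate 1 (limma adjusted p = 0.086, 0.092 and 0.104).

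Related families of factors were counted too, beside 15.4% of all tested genes that passed at 7 days and their median log2 change of 0.14. Of 5 tested C/EBP-type bZIP genes, 1 passed at 7 days, Cebpd, with a log2 change of 0.81 (limma adjusted p = 0.033), whose call was lost after either rescaling and without 3 of the 6 libraries in turn. It was also higher at 28 days, at 1.19 (limma adjusted p = 0.0237), but not without 28 day replicate 1 or either control (limma adjusted p up to 0.121). The list median at 7 days was -0.12. Of 8 tested HES, HEY and ID repressor genes, 2 rose at 7 days, Heyl by 0.77 and Id2 by 0.50, each with its call lost without at least 3 libraries in turn, and 0 passed at 28 days by limma, against 4 with an unadjusted p under 0.05. The call of Id2 was also lost after either rescaling. The median of this list at 7 days was 0.06. Of 9 glucocorticoid-responsive genes, Zbtb16 fell by 1.92 and Sgk1 rose by 0.81 at 7 days, and 7 did not pass, with a median of -0.53. Zbtb16 no longer passed with 1 control library removed, whichever it was (limma adjusted p up to 0.0904), and Sgk1 did not pass after either rescaling.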

How the data were processed

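RPKM were deposited by the authors as 1 value per gene and library, per the file headers. TopHat2 2.0.12 and Bowtie 0.12.9 appear in the submitters' processing notes, along with HTSeq, DESeq2, mm8 and mm9, with no roles. Annotation and strand setting: not given in the sources used here. A log2 transform after adding 0.5 was applied to genes averaging 1 RPKM or more. limma 3.58.1 (R 4.3.3) fitted group means over all 6 libraries with a mean-variance trend, 3 residual and 4.21 prior degrees of freedom, and tested each pair of groups. The script was tested on simulated data. Members, gene lists and tests were chosen with earlier results of these data known. Genes named are the members, the context lists and the nearest of 5 profiles per member, predicted genes and merged entries left out. Relative depth is the mode of the between-library ratio over genes at low RPKM. Promoter sequences come from RefSeq on GRCm38.p6; gene overlaps were looked up by name. Settings changed 1 at a time were the pseudocount (0.1, 1), the filter (none, or 5 RPKM), the scaling (median ratios, quantiles), the trend, fitting 2 groups only, blocking on replicate, and calling by unadjusted p and fold (2 at 7 days, 1.5 otherwise). Single libraries were also removed, assuming that the lone one left varies like other groups. Figures and tables used Python 3.11.15, numpy 2.4.6, pandas 2.3.3 and matplotlib 3.10.9.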

Additional observations from a re-analysis of the deposited data

Results flagged for a closer look

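Levels of 3 of the 7 factors differed between the libraries of the infusion times in the direct test of 28 days against 7 days. The hour of heart collection is not stated, so a difference in it between the groups cannot be told apart from the infusion time. Dbp was higher at 28 days by 2.51 on the log2 scale (limma adjusted p = 0.00264), Tef by 1.0 (limma adjusted p = 0.00902) and Gm129 by 0.91 (limma adjusted p = 0.0271). Both libraries at 28 days exceeded both at 7 days for each of the 3.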

How the results depend on the processing

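With a mean RPKM of at least 5, Hlf, Bhlhe41 and Gm129 were not tested, and 2 members were lower at 7 days and 2 at 28 days. No member was higher than control at 28 days (0) without a filter, with only the 2 groups compared or with a replicate block. With each library left out in turn, the members called lower numbered 4 to 5 at 7 days, with Bhlhe41 the fifth without 7 day replicate 1, and 0 to 4 at 28 days, those called higher 0 to 1 at 7 days, 0 to 1 at 28 days and 1 to 3 in 28 against 7 days, where 0 were lower. Bhlhe40 changed sign without control replicate 2, its range over left-out libraries being -0.43 to 0.19 at 7 days and -0.46 to 0.16 at 28 days. In 28 against 7 days it was 0.11 with median ratios and 0.11 with quantiles, and the cause was not tested. Of 327 member changes recomputed, 298 kept direction and side of the threshold, 22 lost and 3 gained a call, and 4 changed sign. The log2 change of a member could not move with the filter, the trend, the 2 group fit, the replicate block or the unadjusted p. It was also fixed where the library left out belonged to neither group compared. Members called in neither setting count as kept. All tested genes called numbered 1713, 489 and 518 in the 3 comparisons. At 7 days they were 445 with an unadjusted p and a fold threshold, and 392 to 2252 with a library left out. At 28 days they were 61 without a filter, 234 with only the 2 groups, 808 with an unadjusted p, and 33 to 384 with a library left out. In 28 against 7 days they were 264 without a filter, 295 at a mean of at least 5, 288 and 265 after the rescalings, 287 with only the 2 groups, 859 with an unadjusted p, and 27 to 689 with a library left out. Core clock calls of 7, 6 and 3 became 2, 2 and 1 at a mean of at least 5, 1 and 1 in the last 2 comparisons without a filter, and 5 and 8 in the last with a pseudocount of 1 and an unadjusted p. The filter at a mean of at least 5 left 6552 tested genes, and Arntl, Clock, Npas2, Per2 and Per3 were not among them. The labels do not say that replicate numbers pair libraries, and deviations of same-numbered libraries correlated at 0.15, -0.02 and -0.01 between groups. The replicate block ended the 28 day call of Nfil3 and no other member call. With 2 libraries a group and unknown absolute depth, small changes of members below a few RPKM could not be resolved.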
